A study of Mus musculus with 72 samples.

Results

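The enzymes described here are those of phase II conjugation in the liver: the cytosolic glutathione S-transferases (GST), the UDP-glucuronosyltransferases and related UDP-glycosyltransferases (UGT), and the sulfotransferases (SULT). The genes were chosen by symbol and by level. Of 51912 genes in the deposited count table, 64 were protein-coding genes with a GST, UGT or SULT family symbol, and 36 of these had a mean of 0.5 CPM or more (a gene's tag count per 1000000 counts of the library) over all libraries. The 36 genes were 20 of 22 GST genes, 9 of 21 UGT genes and 7 of 21 SULT genes. The lowest gene inside this limit was Gstp2, with a mean of 1.38 CPM, and the highest outside it was Ugt1a5, with 0.328 CPM.

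Liver RNA was measured in wild-type male mice of the inbred strain C57BL/6J, supplied by Charles River with a starting age of 43 to 49 days, kept under 12 h of light and 12 h of darkness, with water always present. Feeding followed 1 of 4 paradigms: ad libitum; restricted to the night (night-restricted); arrhythmic; or arrhythmic in mice that the labels call incompletely adapted. How food was timed is not stated in the labels. Each was sampled with 3 libraries at 6 zeitgeber times (ZT, hours after lights on), every 4 h from ZT02 to ZT22, which gave 18 libraries a paradigm and 72 in all. By its title, the study asks how far rhythms of eating drive rhythms of gene expression in the liver beside its own clock. The labels do not say that replicates were separate animals, so p-values measure only the spread between these libraries, which may be technical.

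Phase II enzymes attach a polar group to a drug, toxin, hormone, bile acid or pigment so that the product can leave in bile or urine. GSTs use glutathione, UGTs use a UDP-sugar, most often UDP-glucuronic acid, and SULTs use the activated sulfate PAPS. Many of their genes are known targets of xenobiotic sensors and of the antioxidant regulator NRF2, and liver detoxification as a whole is known to vary over the day through the clock-controlled PAR bZIP factors DBP, TEF and HLF, which bind the D-box.

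The promoters of 4 genes on which the results below turn are shown: Gsta3, the most abundant member; Gstm7 and Ugt2b34, whose courses differed between paradigms; and Ugt2b1, which differed in mean level. Each is a RefSeq window of 300 bases on GRCm38.p6, from 250 bases before the transcript start to 50 after it, written 5′ to 3′ on the strand of the gene. Capitals mark the core of the antioxidant response element, searched as TGACNNNGC, in Gsta3 and Gstm7, and a D-box, searched as TTATGTAA or TTACGTAA and present on the opposite strand, in Ugt2b1. The Ugt2b34 window held neither and is in lower case throughout. The windows are Gsta3 at chr1:21240335-21240634 on the plus strand, Gstm7 at chr3:107931565-107931864, Ugt2b1 at chr5:86926454-86926753 and Ugt2b34 at chr5:86906888-86907187, the last 3 on the minus strand. Gstm7 has 2 starts in the table, and the element is in the window of 1 of them.
Gsta3: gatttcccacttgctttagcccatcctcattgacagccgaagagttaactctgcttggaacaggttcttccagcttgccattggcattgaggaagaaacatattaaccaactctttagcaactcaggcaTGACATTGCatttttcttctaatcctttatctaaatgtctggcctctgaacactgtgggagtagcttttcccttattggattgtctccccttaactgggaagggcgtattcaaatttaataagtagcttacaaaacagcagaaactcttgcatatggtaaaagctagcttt
Gstm7: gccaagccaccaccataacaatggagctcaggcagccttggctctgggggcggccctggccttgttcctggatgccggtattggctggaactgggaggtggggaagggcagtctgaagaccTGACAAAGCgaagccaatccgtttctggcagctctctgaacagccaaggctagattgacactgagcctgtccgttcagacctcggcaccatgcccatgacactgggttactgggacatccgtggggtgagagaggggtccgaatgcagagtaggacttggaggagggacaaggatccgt
Ugt2b1: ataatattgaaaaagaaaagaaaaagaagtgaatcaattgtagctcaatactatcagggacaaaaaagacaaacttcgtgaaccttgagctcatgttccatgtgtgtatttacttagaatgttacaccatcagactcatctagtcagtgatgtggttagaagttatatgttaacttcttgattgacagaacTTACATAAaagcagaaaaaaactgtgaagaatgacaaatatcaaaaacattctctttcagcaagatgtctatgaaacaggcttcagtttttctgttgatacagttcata
Ugt2b34: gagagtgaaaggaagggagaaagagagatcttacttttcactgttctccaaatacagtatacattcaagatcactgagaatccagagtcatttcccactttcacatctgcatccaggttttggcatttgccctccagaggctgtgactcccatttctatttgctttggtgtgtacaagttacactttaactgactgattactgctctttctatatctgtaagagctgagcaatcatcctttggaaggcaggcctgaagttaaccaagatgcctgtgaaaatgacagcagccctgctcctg

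RefSeq windows were matched for 32 of the 36 genes, with 41 starts. The antioxidant element core was present in 3 of the 41 windows, in Gsta3, Gstm5 and Gstm7, against 12.4% of all 32851 windows of this length. The D-box was present in 1 of the 41 windows, in Ugt2b1, against 1.06% of all windows. The core of the xenobiotic response element, TNGCGTG, was present in 2 of the 41 windows, in Gsta2 and Sult1d1, against 5.07% of all windows. The E-box CACGTG, the binding letters of CLOCK and BMAL1, was in 0 of the 41 windows of these genes, against 7.15% of all windows. All motifs were searched on both strands. The xenobiotic core and the E-box share the letters CGTG. A match describes letters in these windows, and its absence says nothing of sites elsewhere.

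GST transcripts made up most of the counts of the members. These libraries count a tag at the 3′ end of each transcript, so CPM values are compared between genes without a length scale. Summed over members, the mean level was 5964 CPM for GST, 1267 CPM for UGT and 279 CPM for SULT, which is 79.4%, 16.9% and 3.71% of their total of 7510 CPM. Gsta3, an alpha class GST known in mice for detoxifying aflatoxin epoxide, was highest at 2107 ± 338 CPM (SD, n = 72). It was followed by Gstm1 at 1564 ± 441 CPM and Gstt3 at 727 ± 246 CPM. Gstz1, the zeta class enzyme that acts as maleylacetoacetate isomerase in tyrosine breakdown, came next at 420 ± 56.4 CPM and had the smallest relative spread of all members, a coefficient of variation of 13.4%.

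Among UGTs the highest was Ugt2b5 at 327 ± 55.8 CPM, followed by Ugt2a3 at 237 ± 61.8 CPM, Ugt2b34 at 212 ± 67.6 CPM, Ugt2b36 at 190 ± 50.3 CPM and Ugt2b1 at 151 ± 46.7 CPM. Among SULTs, Sult1a1, the phenol sulfotransferase, was highest at 168 ± 43.4 CPM, and Sult2a8, a bile acid sulfotransferase, was next at 56.1 ± 29.2 CPM. The SDs of neighbours in each of these orders overlap, apart from the steps from Gstm1 to Gstt3, from Gstt3 to Gstz1 and from Gstz1 to the next GST, Gstk1 at 247 ± 44.1 CPM, and the step from Sult1a1 to Sult2a8. The relative spread was widest for Gsta1 (102%), Ugt2b37 (88.2%) and Gstp1 (67.8%).

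**Figure D1:**
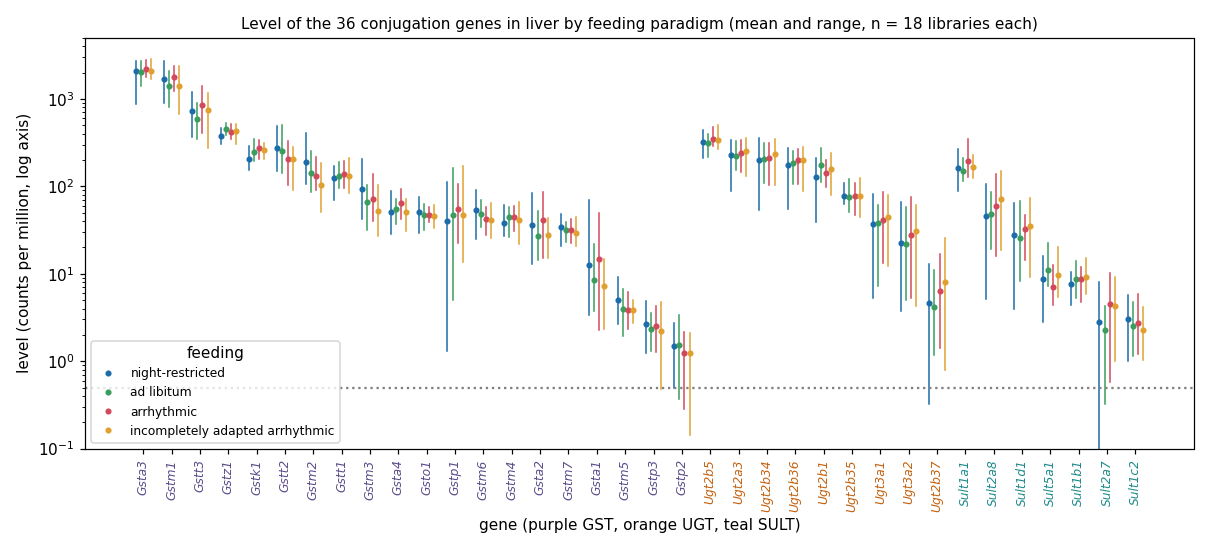
Mean level (points) and range over 18 libraries (lines) of each of the 36 genes in the 4 feeding paradigms, in CPM on a log axis; the dotted line is the limit of 0.5 CPM. Gsta3 leads at 2107 CPM over all libraries and Gstp2 is lowest at 1.38 CPM.

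All 9 Ugt1a genes, which include the bilirubin-conjugating Ugt1a1, were under the limit, with 418 counts together in 72 libraries. These genes are alternative first exons spliced to common last exons: in 8 of the 9, all of the last 500 bases were shared with another Ugt1a gene. How the authors counted reads that match several genes is not given in the sources used here, so these counts do not measure Ugt1a expression. The same limit touches 4 members with most of that 3′ end in another gene: Gsta1 (90%, shared mainly with Gsta2), Gstp2 (88.9%, with Gstp1), Gstp1 (75.2%, with Gstp2) and Gsta2 (51.0%, with Gsta1). Their separate levels are uncertain.

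The members lie in clusters. The 7 Gstm genes stand together on chromosome 3 (107895821 to 108044894, GRCm38), and the 6 Ugt2b genes on chromosome 5 (86889767 to 87254804) beside Ugt2a3 (87324972 to 87337195), Sult1b1 and Sult1d1. Gstt1, Gstt2 and Gstt3 are on chromosome 10, the 3 Gstp genes on chromosome 19, and Ugt3a1 and Ugt3a2 on chromosome 15.

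Libraries held 4342026 to 12286021 counts. Hepatocyte markers (8 genes, all detected) summed to 22628 to 40185 CPM per library. T, NK and B cell markers reached at most 3.97 CPM, and pancreatic acinar markers at most 13.0 CPM, in an arrhythmic library. Kupffer cell markers (7 of 7 tested) summed to 262 to 1430 CPM with ad libitum food, 332 to 1732 with night-restricted food, 334 to 784 in arrhythmic libraries and 219 to 1089 in incompletely adapted ones. In bulk RNA, fewer cells of a type and less RNA per cell cannot be told apart.

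Some libraries stood apart in how counts depended on the GC content of the 3′ end, and many of these genes followed that axis. The measure is the slope, per library, of log2 level over all genes on the GC content of their last 500 bases, per 10 percentage points. It ran from -0.37 to 0.48. The 5 libraries of most extreme slope were replicate 1 of night-restricted feeding at ZT22 (0.48), ZT02 (0.42) and ZT06 (0.41), and replicate 1 of incompletely adapted arrhythmic feeding at ZT10 (-0.37) and ZT14 (-0.32). The GC content of the 3′ end was under 40% in 16 members, among them all 9 UGTs. Of the 16, 10 had a Pearson correlation with the slope below -0.6 over 72 libraries. The slope comes from the same counts, so genes of low GC tend to fall along it by construction. The matching share over all genes was not computed, and the permutation p-values below do not allow for this construction. Ugt2b34 had the lowest r of the 36 genes. For Ugt2b34 r was -0.93 and Spearman's rho -0.91 (permutation p = 1e-05 for each, the smallest that 100000 permutations can give; adjusted over 36 genes 2.4e-05 and 2.57e-05). It was -0.91 without the 2 libraries of most extreme slope, and within single paradigms it was -0.91 (ad libitum), -0.96 (night-restricted), -0.93 (arrhythmic) and -0.95 (incompletely adapted arrhythmic). Gstm2 went the other way, with r = 0.74 and rho = 0.60 (permutation p = 1e-05 for each, adjusted 2.4e-05 and 2.57e-05), 0.68 without the 2 libraries, and 0.79, 0.83, 0.40 and 0.71 within the paradigms in that order. Gstm6, Gstm7, Gstk1 and Sult1c2 had r between -0.12 and 0.15 over 72 libraries. Within the paradigms, in the same order, r was 0.28, 0.27, -0.53 and -0.43 for Gstm6 and 0.26, 0.13, -0.25 and 0.11 for Gstm7. It was 0.12, -0.18, 0.21 and 0.15 for Gstk1, and 0.45, 0.06, -0.096 and 0.02 for Sult1c2. The part of the slope, and of the cell type markers, in the results was not tested. Where a member's call ends with the slope as a covariate, or without the 5 libraries of most extreme slope, its adjusted p is given.

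**Figure D2:**
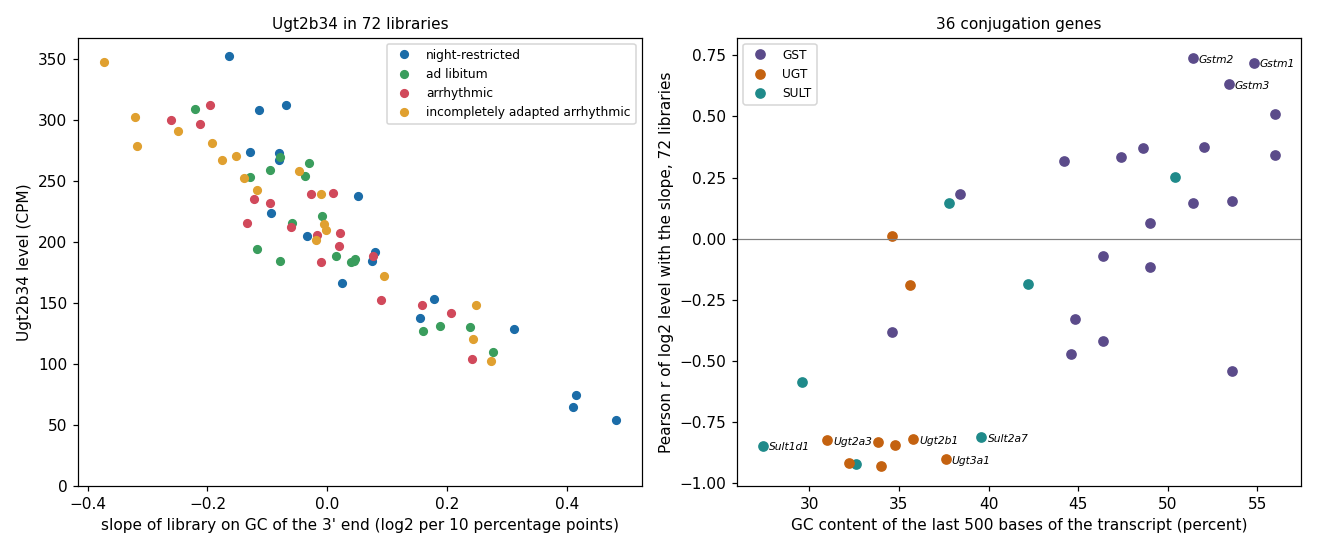
Left, Ugt2b34 level (CPM) in each library against the library's GC slope, coloured by feeding paradigm; right, Pearson r of each gene's log2 level with the slope against the GC content of its 3′ end. Ugt2b34 falls along the slope (r = -0.93) and Gstm1, Gstm2 and Gstm3 rise with it.

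Under night-restricted feeding 14 of the 36 genes were rhythmic, with fitted peaks of the called mu class GSTs early in the light phase and of the called UGTs between lights off and the middle of the dark phase. Rhythm was tested with a 24 h cosine in edgeR's quasi-likelihood model of all 72 libraries, adjusted over 12712 genes (Benjamini-Hochberg, threshold 0.05), and 29.9% of all genes tested were called in this paradigm. The range is the fitted peak minus trough on the log2 scale, given with its SE. Its median over the 36 genes was 0.92, against 0.70 over all genes. Most times set against each other below are those of a gene's highest and lowest mean in the paradigm. That choice favours groups without overlap, and how often all genes show none was not computed. The rhythmic genes were 6 GSTs (Gsta3, Gstm4, Gstm5, Gstm6, Gstm7 and Gstt2), 6 UGTs (Ugt2a3, Ugt2b1, Ugt2b5, Ugt2b34, Ugt2b36 and Ugt3a2) and 2 SULTs (Sult1c2 and Sult1d1).

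**Figure D3:**
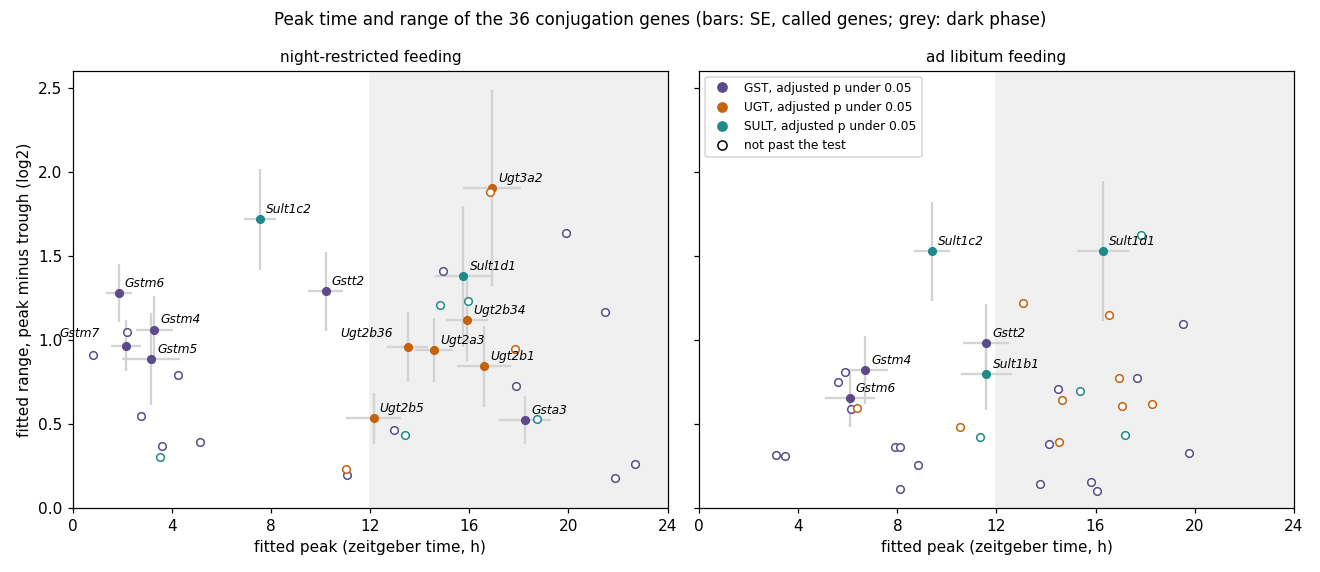
Fitted peak time (h) against fitted range (log2) for the 36 genes under night-restricted (left) and ad libitum feeding (right); filled points passed the test and carry SE bars, open points did not, and the dark phase is grey. Under night-restricted feeding Gstm4, Gstm5, Gstm6 and Gstm7 lie between ZT 1.8 and 3.3 and the 6 called UGTs between ZT 12.1 and 16.9.

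The mu class GSTs conjugate glutathione to a wide range of electrophiles. Gstm6 measured 80.6, 58.2 and 91.9 CPM at ZT02 and 33.2, 24.7 and 41.1 CPM at ZT14. Every ZT02 library lay above every ZT14 library. The fitted range of Gstm6 was 1.28 ± 0.17 with a peak at ZT 1.8 ± 0.51 h (adjusted p = 2.72e-07). Gstm7 measured 43.1, 45.4 and 47.8 CPM at ZT02 and 27.0, 24.4 and 20.9 CPM at ZT14, again with no overlap, a range of 0.96 ± 0.15 and a peak at ZT 2.2 ± 0.60 h (adjusted p = 7.19e-06). Gstm4 measured 61.3, 56.5 and 46.6 CPM at ZT02 and 27.6, 31.5 and 26.9 CPM at ZT18, with a range of 1.06 ± 0.20 and a peak at ZT 3.3 ± 0.73 h (adjusted p = 1.63e-04). These 3 genes kept their calls in all 26 alternatives that gave a range, which included leaving out each of the 18 libraries. The range of Gstm4 was 0.69 once the GC slope was a covariate.

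Gstm5 had a range of 0.89 ± 0.27 and a peak at ZT 3.2 ± 1.2 h (adjusted p = 0.0316). Its highest mean, at ZT06, came from libraries of 8.19, 5.37 and 5.36 CPM and its lowest, at ZT14, from 2.69, 3.59 and 3.98 CPM. The call did not hold without replicate 1 at ZT06 or ZT14, replicate 2 at ZT14 or replicate 3 at ZT02 (adjusted p 0.0672 to 0.106), with the GC slope as a covariate (0.118) or without the 5 libraries (0.104). The abundant Gstm1 did not pass the test, nor did Gstm2 (range 1.05 ± 0.35, adjusted p = 0.0507) or Gstm3 (0.91 ± 0.39, adjusted p = 0.126). Gstm2 was called with DESeq2, with DESeq2 size factors in edgeR, and among genes with a mean of 1 CPM or more. Gstm2 at ZT02 measured 409 CPM in replicate 1, which is one of the libraries of highest GC slope, and 199 and 147 CPM in the others.

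The theta class Gstt2 rose toward the end of the light phase. It measured 177, 193 and 192 CPM at ZT02, 383, 358 and 243 CPM at ZT06 and 487, 457 and 344 CPM at ZT10, then 300, 272 and 347 CPM at ZT14, 236, 245 and 227 CPM at ZT18 and 149, 155 and 167 CPM at ZT22. All libraries at ZT10 lay above all at ZT02, ZT18 and ZT22. The range was 1.29 ± 0.24 with a peak at ZT 10.2 ± 0.70 h (adjusted p = 1.26e-04), and the call held in the same 26 alternatives. Its neighbours Gstt1 and Gstt3 did not pass the test (adjusted p = 0.359 and 0.908). Gsta3 had a shallow course, from 873, 2328 and 1785 CPM at ZT06 to 2506, 2406 and 2283 CPM at ZT14, and these groups overlapped. Its range was 0.52 ± 0.14 (adjusted p = 0.0130), and without replicate 1 at ZT06, the library at 873 CPM, the range was 0.37 (adjusted p = 0.0857). The Gsta3 call also ended without the 5 libraries of most extreme GC slope (adjusted p = 0.0682), in the 18 libraries of the paradigm alone (0.120), with no filter on low counts (0.0609) and when the 6 times were fitted as a factor (0.121).

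Among the UGTs, Ugt2a3 measured 107, 181 and 177 CPM at ZT02 and 307, 333 and 269 CPM at ZT14, with a range of 0.94 ± 0.19 and a peak at ZT 14.6 ± 0.77 h (adjusted p = 5.91e-04). Ugt2b36 measured 79.9, 145 and 148 CPM at ZT02 and 212, 271 and 235 CPM at ZT14 (range 0.96 ± 0.21, peak ZT 13.5 ± 0.83 h, adjusted p = 0.00121). Ugt2b34 measured 74.5, 153 and 166 CPM at ZT02 and 238, 312 and 273 CPM at ZT14 (range 1.12 ± 0.25, peak ZT 15.9 ± 0.84 h, adjusted p = 0.00160). In each of these 3 the ZT02 and ZT14 groups did not overlap, and replicate 1 was the lowest library at ZT02. At ZT18 and ZT22 replicate 1 of Ugt2b34 read 129 and 54.1 CPM, below the highest ZT02 library. Ugt2b5, the most abundant UGT, had a shallower course with its highest mean at ZT10, 439, 408 and 333 CPM, and its lowest at ZT02, 252, 301 and 222 CPM (range 0.53 ± 0.15, peak ZT 12.1 ± 1.1 h, adjusted p = 0.0179).

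Once the GC slope was a covariate, the range was 0.67 for Ugt2a3, 0.71 for Ugt2b36 and 0.66 for Ugt2b34 (adjusted p = 3.16e-04, 3.05e-04 and 4.45e-05), and 0.62 for Ugt2b5 (0.00152). In the 18 night-restricted libraries alone Ugt2b5, Ugt2b36 and Ugt2b34 did not pass the test (adjusted p = 0.0520, 0.0519 and 0.0544). When the 6 times were fitted as a factor, Ugt2b5 and Ugt2b34 were not called either, and Ugt2a3 and Ugt2b36 were. Ugt2b1 had a range of 0.84 ± 0.24 (adjusted p = 0.0199) and Ugt3a2, of the family that uses other UDP-sugars, 1.90 ± 0.58 (adjusted p = 0.0307). With the slope as a covariate these ranges were 0.45 and 0.71, and the adjusted p was 0.0694 and 0.114; without the 5 libraries it was 0.0941 and 0.110. The Ugt2b1 call also ended without replicate 1 at ZT02 or ZT06 or replicate 2 or 3 at ZT18 (adjusted p 0.0569 to 0.0752), and that of Ugt3a2 without any of these 4, replicate 3 at ZT06 or replicate 3 at ZT14 (0.0533 to 0.125). Ugt2b1 in replicate 1 was the lowest of the 3 libraries at all 6 times, with 39.4 to 110 CPM. Ugt3a2 at ZT18 read 5.59 CPM in replicate 1, against 66.4 and 41.3 CPM in replicates 2 and 3.

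**Figure D4:**
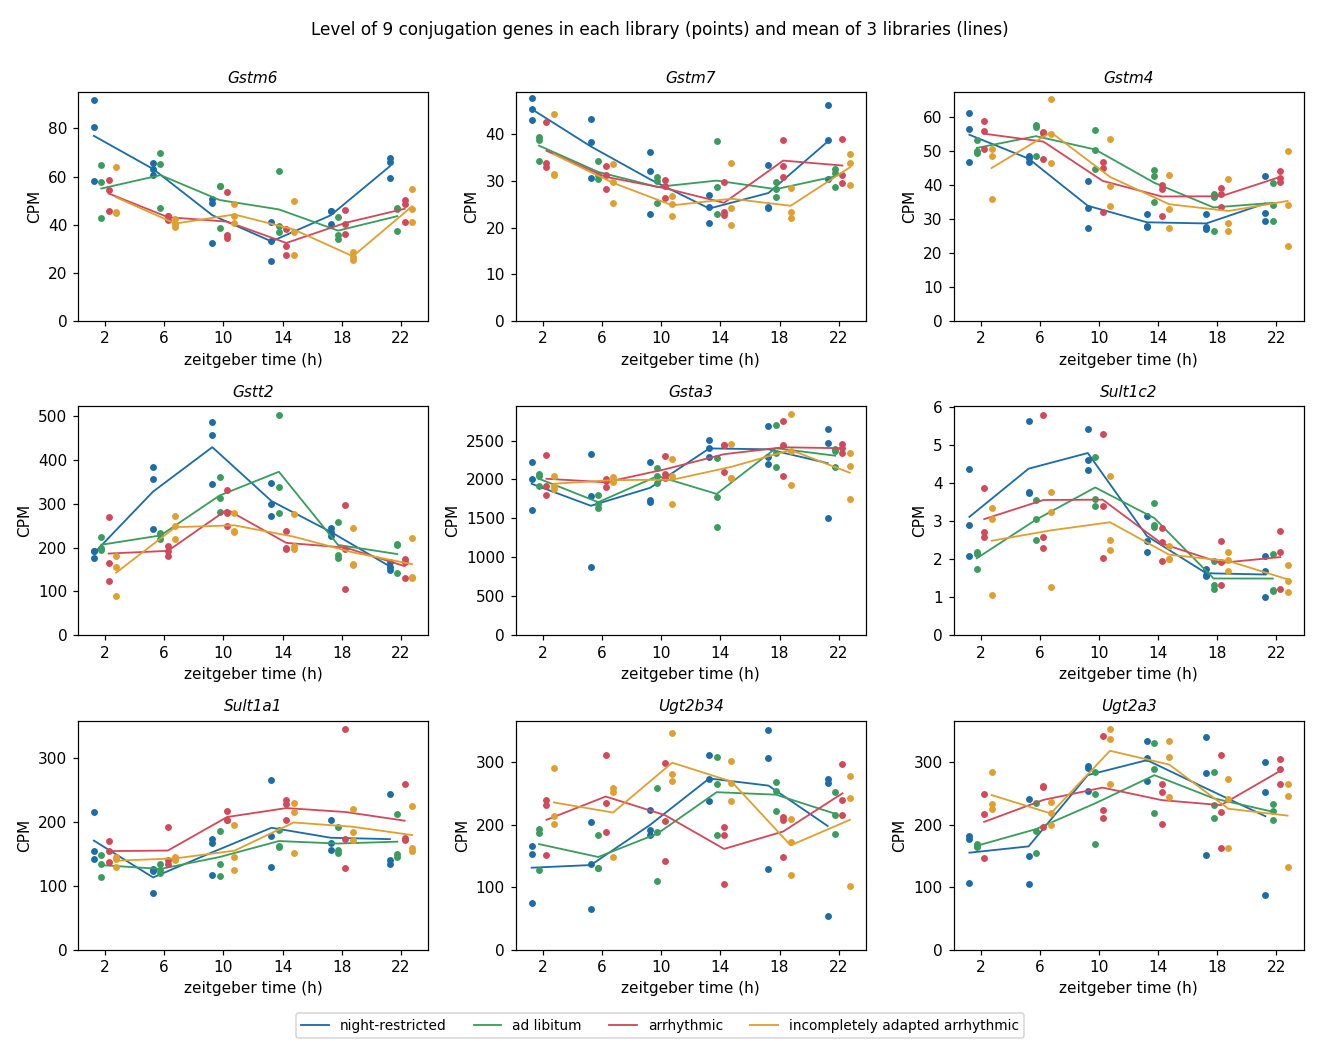
Level (CPM) of 9 genes in each library (points, set side by side at each time) and the mean of 3 libraries (lines) over zeitgeber time (h), coloured by feeding paradigm. Gstm6 and Gstm7 are highest at ZT02 under night-restricted feeding, Gstt2 at ZT10, and Ugt2b34 has its lowest values in night-restricted replicate 1 libraries.

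Sult1c2, a phenol sulfotransferase of low level in this tissue, had the smallest adjusted p among SULTs. Under night-restricted feeding it measured 4.61, 5.43 and 4.35 CPM at ZT10 and 1.70, 2.09 and 1.0 CPM at ZT22. All ZT10 libraries were more than 2-fold above all ZT22 libraries. Its range was 1.72 ± 0.30 with a peak at ZT 7.5 ± 0.65 h (adjusted p = 4.21e-05), and the call held in the same 26 alternatives. Sult1d1, which acts on catecholamines, had a range of 1.38 ± 0.42 and a peak at ZT 15.8 ± 1.2 h (adjusted p = 0.0291). At ZT06 Sult1d1 measured 3.99, 28.3 and 13.0 CPM and at ZT14 51.9, 36.9 and 31.8 CPM, with no overlap. The Sult1d1 call ended with the slope as a covariate (adjusted p = 0.0608), without the 5 libraries (0.232), and without replicate 1 at ZT02, ZT06 or ZT14, replicate 2 at ZT18 or replicate 3 at ZT06 (0.0647 to 0.0973).

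Under ad libitum feeding 6 of the 36 genes were rhythmic, against 7.48% of all genes tested. They were the GSTs Gstm4, Gstm6 and Gstt2 and the SULTs Sult1b1, Sult1c2 and Sult1d1, and 5 of them were also called under night-restricted feeding. Of the 9 UGTs, edgeR's test called 0 here, 4 had an unadjusted p under 0.05, and DESeq2 called 2, Ugt2a3 and Ugt2b5. Over all genes 2847 of 12712 had an unadjusted p under 0.05. In 3 alternatives edgeR called Ugt2a3 and Ugt2b34. These were the GC slope as a covariate (8 of the 36 genes called), without the 5 libraries of most extreme slope (8), and the 18 ad libitum libraries alone (7). Over all genes 1501 of 12712, 1389 of 12880 and 891 of 12260 were called in these fits. In the 18 ad libitum libraries alone, Sult2a7 was also called, and Gstm6 and Sult1b1 were not. The median range over the 36 genes was 0.61, against 0.52 over all genes. Sult1c2 measured 3.40, 4.70 and 3.58 CPM at ZT10 and 1.19, 2.13 and 1.15 CPM at ZT22 (range 1.53 ± 0.29, peak ZT 9.4 ± 0.73 h, adjusted p = 5.54e-04). Gstt2 measured 339, 279 and 503 CPM at ZT14 and 142, 209 and 205 CPM at ZT22 (range 0.98 ± 0.24, peak ZT 11.6 ± 0.92 h, adjusted p = 0.00940). In both genes these groups, those of highest and lowest mean, did not overlap.

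Gstm4 measured 57.8, 57.0 and 48.5 CPM at ZT06 and 36.4, 26.4 and 37.3 CPM at ZT18 under ad libitum feeding (range 0.82 ± 0.20, peak ZT 6.7 ± 0.93 h, adjusted p = 0.0147, and 0.0536 without replicate 2 at ZT18). Gstm6 measured 69.8, 46.9 and 65.1 CPM at ZT06 and 35.5, 34.0 and 43.0 CPM at ZT18 (range 0.65 ± 0.17, peak ZT 6.1 ± 1.0 h, adjusted p = 0.0268). Sult1b1, which sulfates thyroid hormones and phenols, measured 13.9, 9.18 and 9.76 CPM at ZT10 and 5.93, 5.72 and 5.33 CPM at ZT22 (range 0.80 ± 0.22, peak ZT 11.6 ± 1.0 h, adjusted p = 0.0348). Sult1d1 had a range of 1.53 ± 0.42 (adjusted p = 0.0373), with 67.6, 41.6 and 23.3 CPM at ZT14 and 9.30, 8.82 and 25.4 CPM at ZT06, which overlapped. The calls of Gstm6, Sult1b1 and Sult1d1 were near the threshold and ended without any 1 of 8, 8 and 7 of the 18 libraries (adjusted p up to 0.154, 0.125 and 0.138). Whether the later peaks of Gstm4 and Gstm6 under ad libitum feeding differ from those under night-restricted feeding was tested with the whole course, and neither passed (adjusted p = 0.472 and 0.106).

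Under arrhythmic feeding 1 of the 36 genes was rhythmic, Sult1a1, against 3.37% of all genes tested. It measured 155, 170 and 138 CPM at ZT02 and 234, 202 and 227 CPM at ZT14, with no overlap, a range of 0.77 ± 0.20 and a peak at ZT 15.1 ± 0.98 h (adjusted p = 0.0404). The call was lost without any 1 of 12 of the 18 libraries (adjusted p 0.0518 to 0.160). At ZT18 its libraries were 128, 172 and 346 CPM. In the other paradigms Sult1a1 had ranges of 0.53 ± 0.20 (night-restricted), 0.43 ± 0.20 (ad libitum) and 0.65 ± 0.20 (incompletely adapted arrhythmic), none past the test.

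Once the GC slope was a covariate, 6 genes were called under arrhythmic feeding: Gsta1, Gsta2, Gstm4, Gstt2, Sult1c2 and Sult1a1, with 807 of 12712 genes called in all. Without the covariate Gstt2 had a range of 0.80 ± 0.24 and a peak at ZT 11.6 ± 1.1 h (adjusted p = 0.1001), and Sult1c2 a range of 0.99 ± 0.29 and a peak at ZT 7.8 ± 1.1 h (adjusted p = 0.109). Under incompletely adapted arrhythmic feeding 0 of the 36 genes passed edgeR's test, against 3.63% of all genes, and DESeq2 also called 0. An unadjusted p under 0.05 was found in 9 of the 36, and in 1756 of all 12712 genes. With the covariate Gstm4 and Gstt2 were called there, with 813 of 12712 genes called in all.

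**Figure D5:**
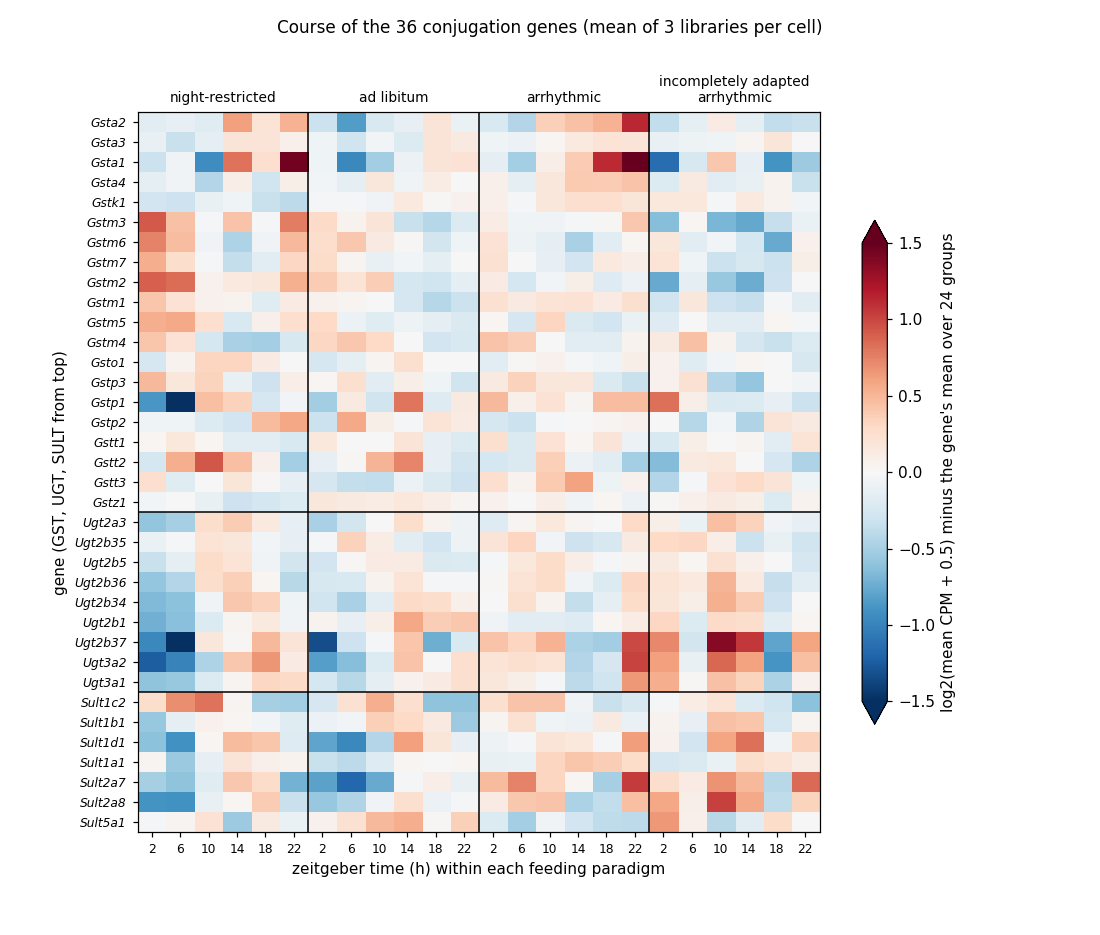
Course of each gene over 6 zeitgeber times (h) in the 4 paradigms, as log2(mean CPM + 0.5) of 3 libraries minus the gene's mean over the 24 groups; red is above and blue below that mean, and genes are ordered by enzyme and subfamily. Most UGT rows are blue at ZT02 and ZT06 under night-restricted feeding.

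Whether courses differed between arrhythmic and night-restricted feeding was tested on the cosine and sine coefficients together, and 3 of the 36 genes passed, Gstm7, Ugt2b34 and Gstm6, against 3.89% of all genes. In these 3 the fitted range was smaller under arrhythmic feeding. Gstm7 had a range of 0.26 ± 0.15 under arrhythmic and 0.96 ± 0.15 under night-restricted feeding, a difference of -0.70 (adjusted p = 0.0343). Ugt2b34 had 0.25 ± 0.25 against 1.12 ± 0.25, a difference of -0.87 (adjusted p = 0.0402), and Gstm6 0.34 ± 0.17 against 1.28 ± 0.17, a difference of -0.93 (adjusted p = 0.0426). At ZT14 Ugt2b34 measured 197, 104 and 183 CPM under arrhythmic feeding and 238, 312 and 273 CPM under night-restricted feeding, with no overlap. ZT14 had its highest night-restricted mean and its lowest arrhythmic mean. Gstm6 at ZT02 measured 45.6, 54.5 and 58.7 CPM under arrhythmic feeding, and the highest of these was just above the lowest night-restricted library, at 58.2 CPM.

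All 3 differences are near the threshold, and leaving out any 1 of 13 (Gstm7), 15 (Ugt2b34) or 27 (Gstm6) of the 36 libraries ended the call (adjusted p up to 0.0857, 0.0957 and 0.123). Once the GC slope was a covariate, only Ugt2b34 passed among these genes (difference -0.62, adjusted p = 0.0362), and without the 5 libraries of most extreme slope none did (adjusted p = 0.128 for Ugt2b34, 0.197 for Gstm6 and 0.0733 for Gstm7). Over the 36 genes the median difference of ranges was -0.42, against -0.25 over all genes, and 28 of the 36 were below 0. The median over all genes was below 0 too, and the share of all genes below 0 was not computed. A fitted range cannot be negative, so these are descriptions. In the other 3 comparisons edgeR called 0 of the 36 genes for a difference of course. For arrhythmic against ad libitum feeding 0.0236% of all genes were called, and DESeq2 called 0 of the 36. Here 3 of the 36, and 1150 of all 12712 genes, had an unadjusted p under 0.05. For night-restricted against ad libitum feeding 0% of all genes were called. DESeq2 called 1 of the 36, Gstm6, as did edgeR once the GC slope was a covariate. Here 3 of the 36, and 1109 of all 12712 genes, had an unadjusted p under 0.05. For incompletely adapted arrhythmic against arrhythmic feeding 0% of all genes were called, and DESeq2 called 0 of the 36. Here 2 of the 36, and 310 of all 12712 genes, had an unadjusted p under 0.05.

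Few of these genes differed in mean level over the day. Summed GST levels were 5662 ± 540 CPM with ad libitum food, 6092 ± 812 with night-restricted food, 6402 ± 631 in arrhythmic libraries and 5701 ± 610 CPM in incompletely adapted ones (SD, n = 18 each). Arrhythmic against night-restricted feeding, 4 of the 36 genes passed the test, against 6.92% of all genes: Gstk1 was higher (1.76% of all genes were) and Gstm2, Gstm6 and Gstt2 were lower (5.16% were). Once the GC slope was a covariate, 6 genes passed, with 774 of 12712 genes called in all: Gstm2 did not, and Gstm1, Gsta4 and Gstm4 did. Gstk1, the kappa class GST of mitochondria and peroxisomes, had a lowest, median and highest value of 155, 197 and 286 CPM under night-restricted and 203, 277 and 334 CPM under arrhythmic feeding, a log2 difference of 0.33 ± 0.08 (SE), or 1.26-fold (adjusted p = 0.0116). The paradigms overlapped, and the call held in all 44 alternatives. Gstm6 had 24.7, 54.4 and 91.9 CPM under night-restricted and 27.5, 42.8 and 58.7 CPM under arrhythmic feeding, a log2 difference of -0.37 ± 0.09 (adjusted p = 0.00669, and 0.0616 without the 5 libraries).

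Gstt2 had 149, 244 and 487 CPM under night-restricted and 104, 197 and 331 CPM under arrhythmic feeding, a log2 difference of -0.42 ± 0.12 (adjusted p = 0.0237, 0.0588 without night-restricted replicate 1 at ZT06, and 0.150 without the 5 libraries). Gstm2 had 105, 157 and 409 CPM under night-restricted and 91.5, 121 and 218 CPM under arrhythmic feeding, a log2 difference of -0.60 ± 0.18 (adjusted p = 0.0293). For Gstm2 the difference was -0.29 once the GC slope was a covariate (adjusted p = 0.137) and -0.28 without the 5 libraries (0.486). The Gstm2 call also ended without any 1 of 5 night-restricted replicate 1 libraries (ZT02, ZT06, ZT14, ZT18 and ZT22), arrhythmic replicate 2 at ZT18 or arrhythmic replicate 3 at ZT10 (adjusted p 0.0536 to 0.0851).

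Arrhythmic against ad libitum feeding, 1 gene passed, against 2.10% of all genes, and it was lower (0.661% of all genes were higher and 1.44% lower). The covariate added Gstm1, Gstt3, Sult1a1, Ugt2b1 and Sult2a7, with 779 of 12712 genes called in all. Sult5a1 had a lowest, median and highest value of 7.16, 9.91 and 22.6 CPM under ad libitum and 4.44, 7.06 and 12.5 CPM under arrhythmic feeding, a log2 difference of -0.63 ± 0.17, or 0.645-fold (adjusted p = 0.0324). The call ended without arrhythmic replicate 2 at ZT22 or replicate 3 at ZT14, or ad libitum replicate 1 at ZT22 or replicate 2 at ZT10 (adjusted p 0.0524 to 0.0876). Night-restricted against ad libitum feeding, 1 gene passed, against 1.62% of all genes, and it was lower (0.724% of all genes were higher and 0.897% lower). The covariate added Gstz1, Gstk1 and Gstm4, with 433 of 12712 genes called in all. Ugt2b1 had 39.4, 118 and 209 CPM under night-restricted and 113, 167 and 277 CPM under ad libitum feeding, a log2 difference of -0.44 ± 0.12, or 0.736-fold (adjusted p = 0.0373). The log2 difference of Ugt2b1 was -0.38 once the GC slope was a covariate (adjusted p = 0.00147) and -0.30 without the 5 libraries (0.235), and its call ended without any 1 of 15 of the 36 libraries (0.0504 to 0.0819). For incompletely adapted arrhythmic against arrhythmic feeding edgeR called 0 of the 36 genes and 0% of all genes, and DESeq2 called 0. An unadjusted p under 0.05 was found in 8 of the 36, and in 639 of all 12712 genes.

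The genes that edgeR's test called in none of the 12 comparisons, in the fit without the GC slope, were the GSTs Gsta1, Gsta2, Gsta4, Gstm1, Gstm3, Gsto1, Gstp1, Gstp2, Gstp3, Gstt1, Gstt3 and Gstz1, the UGTs Ugt2b35, Ugt2b37 and Ugt3a1, and the SULTs Sult2a7 and Sult2a8. Of these, DESeq2 called Gsta1 for rhythm under night-restricted feeding and Sult2a7 for level, arrhythmic against ad libitum feeding. Once the GC slope was a covariate, edgeR called Gsta1 and Gsta2 for rhythm under arrhythmic feeding, and for level Gstm1 and Gsta4 (arrhythmic against night-restricted), Gstm1, Gstt3 and Sult2a7 (arrhythmic against ad libitum) and Gstz1 (night-restricted against ad libitum). Gstm1 had a lowest, median and highest value of 799, 1359 and 2092 CPM with ad libitum food, 894, 1562 and 2729 with night-restricted food, 1219, 1663 and 2404 in arrhythmic libraries and 668, 1340 and 2374 CPM in incompletely adapted ones, so that all 4 overlapped widely. Gstt3 had night-restricted values of 370 to 1206 CPM and arrhythmic values of 403 to 1412 CPM. Gstp1, of the pi class, read 4.02, 2.52 and 1.32 CPM in night-restricted replicate 1 at ZT02, ZT06 and ZT22, the 3 libraries of highest GC slope, and 21.6 to 87.8 CPM in replicates 2 and 3 at those times. Sult2a8 ranged from 19.1 to 85.9 CPM with ad libitum food, 5.09 to 107.6 with night-restricted food, 16.0 to 140.1 in arrhythmic libraries and 18.5 to 148 CPM in incompletely adapted ones. Ugt3a1 ranged from 7.26 to 61.8, 5.25 to 81.1, 13.2 to 86.8 and 12.2 to 78.8 CPM in the same order. In both genes the lowest library of all 72 was one of the same 3, ZT22 for Sult2a8 and ZT06 for Ugt3a1.

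Other genes of conjugation were taken from lists, and the shares of all genes called, 29.9% with night-restricted food, 7.48% with ad libitum food, 3.37% in arrhythmic libraries and 3.63% in incompletely adapted ones, apply to each count of rhythmic genes. Of 11 genes of cofactor and substrate supply, 5 were rhythmic with night-restricted food, 3 with ad libitum food, 3 in arrhythmic libraries and 1 in incompletely adapted ones, and 0 differed in mean level by edgeR's test. Ugp2, which makes UDP-glucose for the UGT cofactor, was called in all 4, with ranges of 1.11 ± 0.28, 0.98 ± 0.28, 1.11 ± 0.28 and 1.15 ± 0.28 in that order (adjusted p = 0.00692, 0.0428, 0.0397 and 0.0311). Papss2, which makes PAPS for the SULTs, was called under arrhythmic feeding with a range of 1.52 ± 0.32 and a peak at ZT 13.7 ± 0.81 h (adjusted p = 0.00479). Of 15 regulators, 8, 5, 5 and 4 were rhythmic in the same order of paradigms, and Dbp, Tef and Hlf, the D-box binding factors, and Por, the electron donor of cytochrome P450 enzymes, were called in all 4. Of 12 tested other conjugating enzymes, which include the microsomal GSTs Mgst1 and Mgst3 and the sigma class GST Hpgds, 4, 1, 1 and 0 were rhythmic. In mean level, arrhythmic against night-restricted feeding, As3mt (log2 0.65) and Inmt (0.53), both methyltransferases, were higher, and the glycine N-acyltransferase Glyat (-0.55) was lower. In that comparison, where 6.92% of all genes were called, the targets Cyp1a2 (-0.46) and Hmox1 (-0.54) were lower. Against ad libitum feeding, Por (0.38) and Cyp2b10 (0.93) were higher and the exporter Abcg2 (-0.29) was lower under arrhythmic feeding, and Cyp4a14 (0.58) was higher and Abcg2 (-0.33) lower under night-restricted feeding. Of 6 tested genes of deconjugation and export, 2, 1, 0 and 0 were rhythmic. Of 11 tested target genes of the same regulators, 4, 2, 0 and 3 were. The list genes were tested only in the fit without the GC slope. Whether their calls hold in the alternative fits was not tested.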

How the data were processed

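The authors deposited a table of raw 3′ tag counts per gene in 72 libraries (QuantSeq, per the labels' protocols). STAR 2.4.2a, GRCm38.p5 and mm10 are named in the submitters' processing notes; no source used here names the counting tool or how shared reads were treated. A second deposited table, named as TPM, holds CPM: its values equal 1000000 times each count over the library's total, for 11508 genes, and CPM here were computed the same way from the counts. Counts were fitted in edgeR 4.0.16 (R 4.3.3), with TMM scaling, filterByExpr over 24 groups and a 24 h cosine for each paradigm, by the quasi-likelihood test with Benjamini-Hochberg adjustment over 12712 genes at 0.05. DESeq2 1.42.0 was an alternative. The fit was tested on simulated data. Depth was 4342026 to 12286021 counts a library. Groups came from sample titles. Values in detail were given for genes called rhythmic (the 12 smallest p), called for level or course, or highest in a subfamily; others given per library were chosen after their values were seen. Members and lists were chosen with earlier results of these data known.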

Additional observations from a re-analysis of the deposited data

Results flagged for a closer look

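In 3 genes the courses over the day differed between arrhythmic and night-restricted feeding by the test of the difference itself (edgeR's quasi-likelihood test, Benjamini-Hochberg adjusted over 12712 genes), against 3.89% of all genes. The adjusted p was 0.0343 for Gstm7, 0.0402 for Ugt2b34 and 0.0426 for Gstm6. The fitted range was smaller under arrhythmic feeding in each, by 0.70, 0.87 and 0.93 on the log2 scale. All 3 calls were lost without the 5 libraries of most extreme GC slope, with no filter on low counts, when the 6 times were fitted as a factor and in the 36 libraries of both paradigms alone. Over all genes 495 were called in the main fit, and 185, 248, 52 and 267 in these fits, in that order. Any 1 of 13 (Gstm7), 15 (Ugt2b34) or 27 (Gstm6) of the 36 libraries, left out, also ended the call.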

How the results depend on the processing

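Alternative fits were read out gene by gene only for the 36 genes. Over their called results, 942 of these fits gave a range or a level difference, which leaves out time as a factor of 6 levels. Of the 942 fits, 754 kept the call, 188 lost it and 0 reversed the direction. A fitted range cannot be negative, so no rhythm call could reverse. Only differences of level or of range could. Leaving out 1 library at a time gave 9 to 18 rhythmic genes of the 36 under night-restricted feeding (14 with all; 9 without replicate 1 at ZT06), 3 to 7 under ad libitum (6 with all; 3 without replicate 1 or 2 at ZT14 or replicate 3 at ZT02), 0 to 4 under arrhythmic (1 with all; 4 without replicate 1 at ZT18) and 0 to 2 under incompletely adapted arrhythmic feeding (0 with all; 2 without replicate 3 at ZT22, 1 without replicate 1 at ZT14 or replicate 3 at ZT18). Level differences numbered 2 to 5 for arrhythmic against night-restricted (4 with all; 2 without night-restricted replicate 1 at ZT06), 0 to 4 for arrhythmic against ad libitum, 0 to 2 for night-restricted against ad libitum and 0 to 0 for incompletely adapted arrhythmic against arrhythmic feeding. Differences of course numbered 0 to 4 for arrhythmic against night-restricted feeding and 0 to 0 in the other 3 comparisons. The matching counts over all genes are not given for these fits.

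With no filter on low counts, which tests 25393 genes, the rhythm counts were 9 (night-restricted), 3 (ad libitum) and 0 (arrhythmic), the night-restricted against ad libitum level count 0, and the course count for arrhythmic against night-restricted feeding 0. Without the 5 libraries of most extreme GC slope, the night-restricted and arrhythmic rhythm counts were 9 and 2. The level counts were 2 (arrhythmic against ad libitum), 1 (arrhythmic against night-restricted) and 0 (night-restricted against ad libitum), and the course count 0. Over all 12880 genes tested these counts were 2435 and 561 for rhythm, 369, 135 and 103 for level, and 185 for course. With the GC slope as a covariate, rhythm counts were 6 (arrhythmic) and 2 (incompletely adapted arrhythmic). Level counts were 6 (arrhythmic against ad libitum) and 4 (night-restricted against ad libitum). Course counts were 1 (arrhythmic against night-restricted) and 1 (night-restricted against ad libitum). Over all 12712 genes these counts were 807 and 813 for rhythm, 779 and 433 for level, and 413 and 38 for course. With time as a factor, 7 of 14 night-restricted, 5 of 6 ad libitum and the 1 arrhythmic rhythm call and all 3 course calls were lost. Rhythm counts were then 7 (night-restricted), 1 (ad libitum) and 0 (arrhythmic), and the course count 0. Over all 12712 genes these counts were 1741, 509 and 212 for rhythm and 52 for course. With the 18 libraries of a paradigm alone, rhythm counts were 6 (night-restricted) and 0 (arrhythmic). With the 36 libraries of both paradigms the counts were 3 (level, arrhythmic against ad libitum), 0 (level, night-restricted against ad libitum) and 0 (course, arrhythmic against night-restricted). Over all genes these counts were 1877 of 11695, 429 of 11766, 321 of 12314, 131 of 12500 and 267 of 12205. For the level of arrhythmic against ad libitum feeding the count was 2 with DESeq2 size factors, 2 among genes with a mean CPM of 1 or more, and 3 with DESeq2. Over all genes these counts were 260 of 12712, 238 of 11669 and 337 of 12712. DESeq2 gave 1 for the course of night-restricted against ad libitum feeding, and 18 over all 12712 genes. Without the filter the rhythm calls of Gsta3, Ugt2b5, Sult1d1, Ugt3a2 and Gstm5 (night-restricted), Gstm6, Sult1d1 and Sult1b1 (ad libitum) and Sult1a1 (arrhythmic) were lost. With time as a factor, the night-restricted calls lost were those of Gsta3, Ugt2b5, Ugt2b34, Ugt2b1, Sult1d1, Ugt3a2 and Gstm5. Of the ad libitum calls that of Sult1c2 alone was kept. The cause of the changes was not tested.

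With the replicate number as a block the counts were unchanged in all 12 comparisons: 14, 6, 1 and 0 for rhythm, 4, 1, 1 and 0 for level and 3, 0, 0 and 0 for course. Deviations of same-numbered libraries correlated from -0.77 to 0.83 (median 0.04 over 828 pairs). Those of other-numbered libraries correlated from -0.81 to 0.83 (median -0.02 over 1656 pairs). Of 72 libraries, 34 were closest to their own number. The fit did not take the numbers to pair the libraries, and a pairing was not tested further. A block over 4 paradigms does not test a replicate effect within 1 of them, and the 3 highest GC slopes are all night-restricted replicate 1.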
